A study of Mus musculus with 2 samples.

Results

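Imprinted genes are transcribed from the copy inherited from only one parent, and many of them set the size of the fetus and of its organs. Maternally expressed genes of this kind tend to restrain growth and paternally expressed ones tend to promote it, and several are strongly expressed in embryonic muscle and fall after birth. Described here are 7 such genes: the maternally expressed H19, Meg3, Grb10 and Cdkn1c and the paternally expressed Peg3, Mest and Plagl1. They were listed by name, and their values were read from loci that carry a single gene symbol. Under that rule 4 of the 7 were found (Peg3, Mest, Grb10 and Cdkn1c) among 10543 genes. H19 and Meg3 each lie in a locus that also carries the symbols of the microRNAs they host, so their 2 values belong to merged loci and are given as such. No locus named Plagl1 was found in the table used here, and Plagl1 was not analysed.

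The tissue was thigh muscle of B6C3F1 mice, a hybrid of the C57BL/6 and C3H strains, at 26 months of age in both groups. Control mice ate the control diet, and the calorie-restricted mice (CR) took in about 40% fewer calories for 25 months from a diet enriched to keep protein, vitamins and minerals per body weight near the control level. Each group is 1 library of poly(A) RNA, so no difference has a replicate check and no p-value is given. The sources used here do not say how many mice stand behind a library, or their sex. Values are FPKM, fragments scaled by transcript length and by library, so levels of different genes can be set side by side. Each log2 ratio sets CR against control after adding 1 to both FPKM values, and folds are the same ratio on the linear scale. FPKM sums over both parental copies, so which copy was transcribed was not measured.

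Skeletal muscle fibre genes were abundant in both libraries, which goes with the labelled tissue. The 12 listed had a summed level of 1192620 FPKM in control and 1621250 FPKM in CR muscle. For the 15 listed white adipocyte genes the sums were 8204 and 23761 FPKM. Depth is unknown. Genes at 0 numbered 247 in the control and 458 in the CR library, and a 0 in this table can be a failed estimate, so no fold is given against it. Over all genes the median log2 ratio was -0.03.

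The microRNAs that share a locus with H19 and Meg3 are shown because they decide how those members enter the table. The H19 RNA is the precursor of miR-675, and Meg3 hosts miR-770 and miR-1906. The mature sequences are from RefSeq (GRCm38.p6), with the seed, bases 2 to 8, in capitals. They lie on chromosome 7 for miR-675 (142577078 to 142577133, minus strand) and on chromosome 12 for miR-1906 (109544588 to 109544609) and miR-770 (109563710 to 109563765, plus strand). The 5 seeds differ from each other. Mature microRNAs carry no poly(A) tail, so the FPKM below are not levels of these molecules.
miR-675-5p: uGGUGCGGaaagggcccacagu
miR-675-3p: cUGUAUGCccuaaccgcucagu
miR-770-5p: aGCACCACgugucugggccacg
miR-770-3p: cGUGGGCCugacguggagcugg
miR-1906: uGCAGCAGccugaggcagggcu

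The comparison asks whether long-term restriction goes with a different level of these growth genes in old muscle. Peg3 stood lower in the CR library by more than 2-fold, and the other 5 measured members lay within 2-fold. Grb10 leaned higher, Cdkn1c, H19 and Mest leaned lower, and Meg3 was nearly level. Across all genes 18.7% lay at least 2-fold apart: 10.7% were at least 2-fold lower in the CR library and 8.01% at least 2-fold higher. These shares include genes listed at 0 in a library; among the 9844 genes above 0 in both, as all measured members are, 6.85% were lower by 2-fold or more and 6.15% higher. Of the 4 members in single-symbol loci, 1 was at least 2-fold lower and 0 were at least 2-fold higher; with so few members these counts cannot be set apart from that background. The members' log2 ratios ran from -1.60 for Peg3 to 0.62 for Grb10, with a median of -0.46 for the 4 and -0.28 for all 6 measured.

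**Figure D1:**
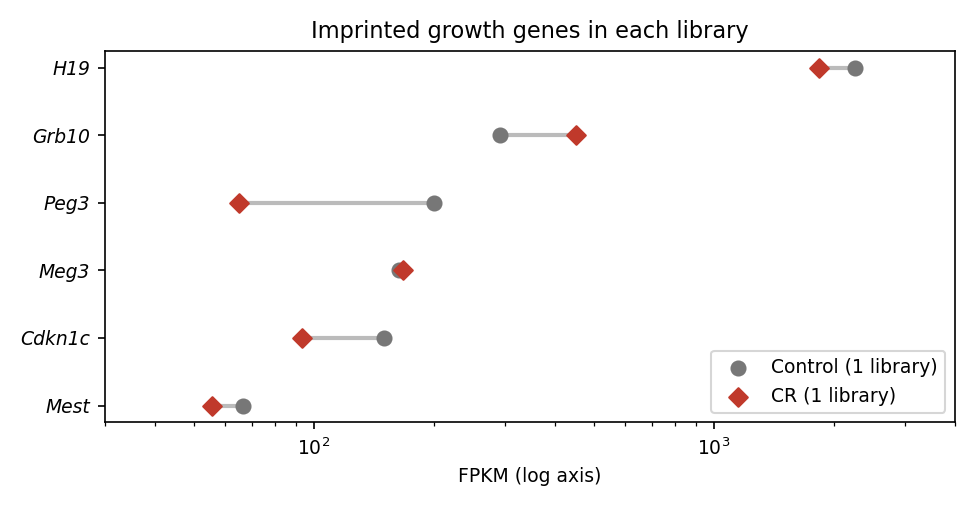
FPKM of the 6 measured imprinted growth genes (log axis) in the control library (grey circles) and the CR library (red diamonds), 1 library each and no error bars. Peg3 has the longest line, from 199 FPKM in the control to 65.0 in the CR library, and the Meg3 marks nearly coincide.

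H19 was by far the most abundant member in both libraries. In the control library the order was H19, Grb10, Peg3, Meg3, Cdkn1c and Mest; in the CR library it was H19, Grb10, Meg3, Cdkn1c, Peg3 and Mest. Peg3 thus moved from the third to the fifth place. Neighbours in either order cannot be shown to differ with 1 library per group. The level of H19 was above that of 96.8% of genes in control and 95.7% in CR muscle, while Mest was above 17.6% and 15.9%. Peg3 stood above 45.9% of genes in control and above 18.2% in CR muscle. Grb10 went the other way, from above 59.8% of genes to above 75.1%.

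**Figure D2:**
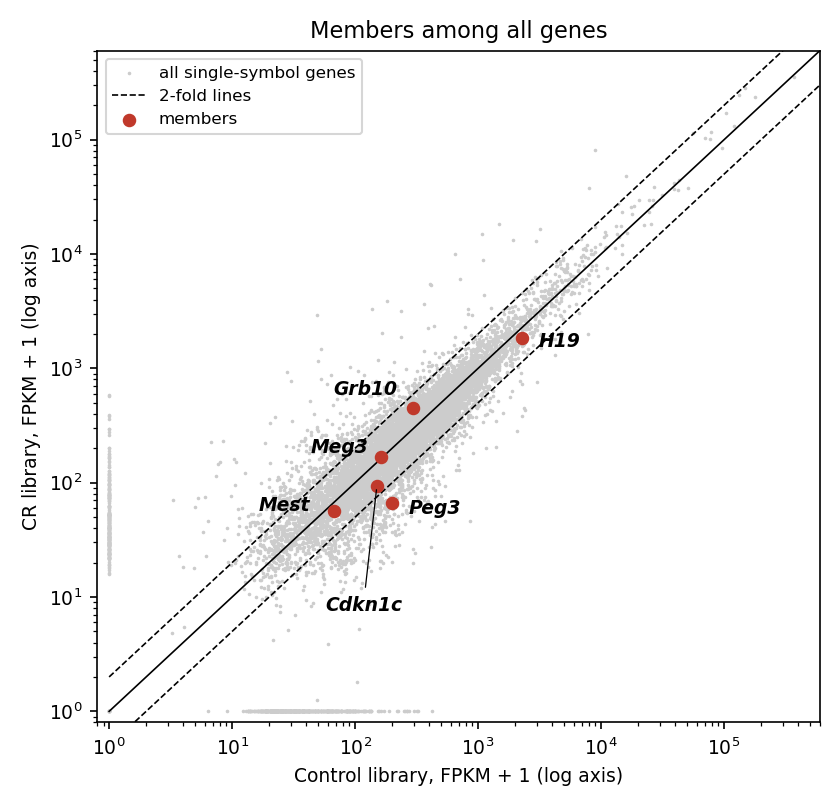
FPKM + 1 of every single-symbol gene in the control library (x, log axis) and the CR library (y, log axis), with the 6 measured members in red, the line of equality and the 2-fold lines. Peg3 lies below the lower 2-fold line, the other 5 members lie between the lines, and the columns of points at 1 are genes listed at 0 in a library.

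Peg3, also called Pw1, encodes a large zinc finger protein that takes part in p53 and NF-kappaB signalling and marks progenitor cells of muscle and its interstitium. Its locus (mm9, chromosome 7, 6656650 to 6683130, minus strand) stood at 199 FPKM in control and 65.0 FPKM in CR muscle, a log2 ratio of -1.60, or 3.03-fold lower. The lower value is in the CR library, and it is above 0, so the ratio does not rest on a failed estimate at 0. In bulk tissue, fewer cells of a type and less RNA per cell cannot be told apart.

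The loci around Peg3 stood lower as well. Zim1, a maternally expressed zinc finger gene 7.51 kb beyond the 3′ end of the Peg3 locus (chromosome 7, 6627639 to 6649143, minus strand), stood at 75.9 FPKM in control and 17.3 FPKM in CR muscle, 4.20-fold lower. Apeg3, an antisense RNA that lies wholly inside the Peg3 locus (6658769 to 6661729, plus strand), stood at 61.5 and 28.0 FPKM, 2.15-fold lower. As the kit as described keeps no strand information, Apeg3 and Peg3 reads there cannot be separated and both values are uncertain. A pair of unnamed loci overlap the 3′ part of Peg3, one of 417 bases (120.7 FPKM in control and 29.2 in CR muscle) and one of 566 bases (79.1 and 14.0 FPKM). Their reads cannot be told apart from those of Peg3, so they are no separate evidence. The CR values of Zim1, Apeg3 and both unnamed loci are low for that library. All lie below the 55.6 FPKM of Mest, which stood above 15.9% of its genes, so their folds are uncertain.

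Within 60 kb downstream and 40 kb upstream of the Peg3 start the table lists 8 loci, Peg3 included. All 8 were lower in the CR library: 6 above 0 in both libraries, each at least 2-fold lower, and 2 unnamed loci listed at 0 there, at 39.1 and 16.1 FPKM in the control library. Beside that, 22.2% of all loci, named or not, were at least 2-fold lower in the CR library, and 11.4% of those above 0 in both libraries. This window was chosen after the values were seen, and 3 of the loci overlap Peg3. Another 2, unnamed (6624925 to 6625448 and 6625600 to 6626981), lie next to the 3′ end of Zim1. Whether they belong to the Zim1 transcript was not tested, so the 8 loci are not 8 separate observations. Named loci farther out differed from each other. Zfp954, the nearest named locus upstream at 384 kb, stood at 155 FPKM in control and 34.3 FPKM in CR muscle, 4.42-fold lower. Zfp28, on the downstream side beyond Zim1 (6336028 to 6349347), stood at 39.3 and 39.5 FPKM.

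**Figure D3:**
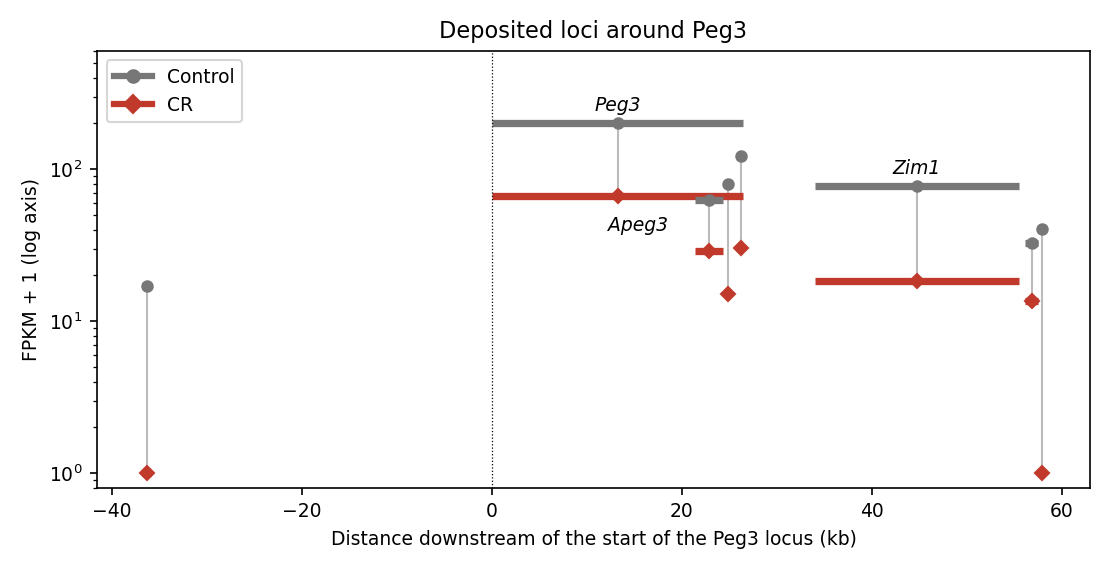
FPKM + 1 (log axis) of each deposited locus around Peg3 against the distance in kb downstream of the start of the Peg3 locus, with control in grey and CR in red, bars to the length of the locus and marks at its middle. In all 8 loci the red mark lies below the grey one, and 2 unnamed loci are listed at 0 in the CR library.

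The promoters of Peg3 and Zim1 are printed because these 2 neighbours were lower together, and that of Meg3 as a member that was level. Each is the RefSeq window of 300 bases on GRCm38.p6, from 250 before to 50 after the start, 5′ to 3′ on the gene's strand; the values above are on mm9, and no position was carried between builds. Windows were found for 5 of the 7 members (Meg3, Peg3, Mest, Grb10 and Plagl1). Capitals mark 2 runs of letters searched on both strands, GGGGCCCC, a sequence that Plagl1 protein is known to bind, and TGACGTCA, the cyclic AMP response element; the runs do not overlap. Peg3 is chr7:6730370-6730669 (minus strand), Zim1 is chr7:6696383-6696682 (minus strand) and Meg3 is chr12:109540746-109541045 (plus strand).
Peg3: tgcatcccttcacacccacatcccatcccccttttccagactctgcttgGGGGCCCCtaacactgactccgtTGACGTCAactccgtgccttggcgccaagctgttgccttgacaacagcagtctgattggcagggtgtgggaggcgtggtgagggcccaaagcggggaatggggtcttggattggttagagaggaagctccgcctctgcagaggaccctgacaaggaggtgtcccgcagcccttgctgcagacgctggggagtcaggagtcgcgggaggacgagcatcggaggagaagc
Zim1: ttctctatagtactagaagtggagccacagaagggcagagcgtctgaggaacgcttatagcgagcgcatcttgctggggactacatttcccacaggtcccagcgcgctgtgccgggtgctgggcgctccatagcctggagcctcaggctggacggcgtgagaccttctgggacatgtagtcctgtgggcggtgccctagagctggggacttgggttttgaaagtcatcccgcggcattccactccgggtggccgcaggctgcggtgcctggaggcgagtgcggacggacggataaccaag
Meg3: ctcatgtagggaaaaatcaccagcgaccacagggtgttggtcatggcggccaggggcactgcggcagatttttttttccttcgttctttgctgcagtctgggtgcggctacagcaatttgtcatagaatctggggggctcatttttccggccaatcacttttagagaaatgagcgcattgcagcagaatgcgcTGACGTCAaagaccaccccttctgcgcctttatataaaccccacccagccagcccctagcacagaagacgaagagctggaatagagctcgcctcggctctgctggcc

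The Peg3 window holds GGGGCCCC once, from 201 bases before the start, and TGACGTCA once, from 178 bases before it. GGGGCCCC occurs in 1.07% and TGACGTCA in 1.79% of 32817 windows. The Meg3 window holds TGACGTCA once, from 57 bases before the start. Neither run was found in these windows of Zim1, Mest, Grb10 and Plagl1. The motifs were chosen after the sequences were seen, and a match describes letters only. CCAAT, counted on both strands and in 37.4% of windows, occurs 2 times in the Peg3 window and 1 time in that of Meg3, and TATAAA (13.6% of windows) occurs 2 times, overlapping, in that of Meg3. The Peg3 window shares 263 bases with that of Usp29, a paternally expressed gene read in the opposite direction from the same start region and not analysed here. CpG pairs numbered 13 in the Peg3 window and 20 in that of Zim1, against a median of 7 over all windows. Members with several windows varied between them: Meg3 had 13 in the printed window and 1 in the other, Grb10 had 45 and 9, and Mest had 8 in one and 17 in each of an overlapping pair. The Plagl1 window had 26.

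H19 is a maternally expressed long non-coding RNA that restrains growth, shares enhancers with the paternally expressed growth factor gene Igf2 and remains on in adult muscle. Its locus, merged with Mir675 (mm9, chromosome 7, 149761436 to 149764258, minus strand), stood at 2254 FPKM in control and 1833 FPKM in CR muscle, a log2 ratio of -0.30, or 1.23-fold lower. Igf2 lies 72.4 kb upstream (149836673 to 149846940) and stood at 238 and 556 FPKM, 2.33-fold higher in the CR library. The nearby muscle transcript Nctc1, on the other side of H19, stood at 376 and 356 FPKM. The level of H19 was 9.48 times that of Igf2 in the control and 3.30 times in the CR library, a ratio of levels within each library that does not depend on the scaling between them. The 2 genes leaned in opposite directions, with only Igf2 past 2-fold.

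Cdkn1c encodes p57Kip2, a cyclin-dependent kinase inhibitor that brings dividing precursors, myoblasts among them, out of the cell cycle. Its locus (mm9, chromosome 7, 150644244 to 150646955, minus strand) stood at 150 FPKM in control and 93.3 FPKM in CR muscle, a log2 ratio of -0.67, or 1.60-fold lower. The genes along the same imprinted region were mostly level or lower. Nap1l4, a histone chaperone gene next to it, stood at 7943 and 5534 FPKM, and Osbpl5, an oxysterol-binding protein gene, at 258 and 135 FPKM. Cd81, a tetraspanin gene, stood at 704 and 702 FPKM and Tssc4 at 99.4 and 91.0 FPKM. Kcnq1ot1, the paternal non-coding RNA that silences this region, was listed at 14.0 and 0 FPKM, and no fold is given. Dhcr7, a sterol synthesis gene at the far end, went the other way, at 49.9 FPKM in control and 161 FPKM in CR muscle.

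The other inhibitors of the family did not share one direction. Cdkn1a, which encodes p21, stood at 701 FPKM in control and 165 FPKM in CR muscle, 4.24-fold lower, and Cdkn1b, which encodes p27, at 284 and 428 FPKM, a log2 ratio of 0.59. The list around Cdkn1c has 10 measured genes: inhibitors, cyclins and kinases, with Rb1 and Pcna. Of these, 1 was at least 2-fold higher, the cyclin gene Ccnd2 (113 and 313 FPKM). Another 3 were at least 2-fold lower: Cdkn1a, Rb1 (1127 and 562 FPKM) and Cdk2, listed at 31.6 and 0 FPKM. Rb1, a brake on cell cycle entry, lay at the threshold. Beside these counts, 8.01% of all genes were at least 2-fold higher and 10.7% lower. The median log2 ratio of the 10 was -0.01, or 0.12 without Cdk2. Pcna stood at 599 FPKM in control and 669 FPKM in CR muscle, and the proliferation marker Mki67 was not analysed here.

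Grb10 encodes an adaptor that binds the insulin and IGF1 receptors, dampens their signal and limits muscle mass. Its locus (mm9, chromosome 11, 11830502 to 11937423, minus strand) stood at 292 FPKM in control and 451 FPKM in CR muscle, a log2 ratio of 0.62, or 1.54-fold higher. It had the highest ratio of the measured members and stayed within 2-fold. Its paralog Grb14 stood at 104 and 124 FPKM. Cobl, the next named gene 199 kb away, stood at 731 and 336 FPKM, 2.17-fold lower, so the neighbours leaned in opposite directions.

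Around Grb10, 2 of 19 measured genes of insulin and IGF signalling were at least 2-fold higher, beside 8.01% of all genes. At least 2-fold lower were 0, beside 10.7% of all genes, and the median log2 ratio was 0.06. Igf2 and Igf1 (50.7 and 105 FPKM) were the higher ones, with Igf1 just past the threshold at 2.05-fold. The receptors leaned lower: Igf1r stood at 563 FPKM in control and 312 FPKM in CR muscle, Insr at 647 and 481 FPKM, and Igf2r, the imprinted clearance receptor of Igf2, at 881 and 451 FPKM. Igf2r lay just inside 2-fold, at 1.95-fold lower. The most abundant gene of the list was Nedd4, a ubiquitin ligase that binds Grb10, at 2993 and 2367 FPKM.

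Meg3 is a maternally expressed long non-coding RNA of the Dlk1 region, linked to p53 activity and to Polycomb. Its merged locus (mm9, chromosome 12, 110779206 to 110809939, plus strand) stood at 163 FPKM in control and 167 FPKM in CR muscle, a log2 ratio of 0.04, which turned to -0.034 when the libraries were rescaled to matching sums of all but the top 50 genes. Rian, the next non-coding RNA of the region 32.2 kb downstream (110842155 to 110899921), stood at 38.8 and 74.2 FPKM, 1.89-fold higher and within 2-fold. The level of Meg3 was 4.19 times that of Rian in the control and 2.25 times in the CR library. Dlk1, Rtl1 and Mirg of the same region were not analysed here.

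Mest, also called Peg1, encodes an enzyme-like protein of the endoplasmic reticulum that is abundant in the embryo and tied to fat cell growth. It was the least abundant measured member. Its locus (mm9, chromosome 6, 30688063 to 30698457, plus strand) stood at 66.5 FPKM in control and 55.6 FPKM in CR muscle, a log2 ratio of -0.25, or 1.19-fold lower. Its end overlaps that of Copg2, read from the other strand, by 402 bases, and reads there cannot be assigned without strand. Copg2, a coat protein gene of vesicle transport, stood at 322 and 436 FPKM. White adipocyte markers stood higher in the CR library, 11 of 15 by at least 2-fold (median log2 ratio 1.93, summed level 8204 and 23761 FPKM, Adrb3 at 0 in the control library). The share of all genes at least 2-fold higher was 8.01%. Any link between the white adipocyte markers and the level of Mest was not tested.

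Plagl1 encodes a zinc finger transcription factor that regulates other imprinted growth genes. Its paralog Plagl2, which is not a member, stood at 88.0 FPKM in control and 64.4 FPKM in CR muscle, 1.36-fold lower.

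**Figure D4:**
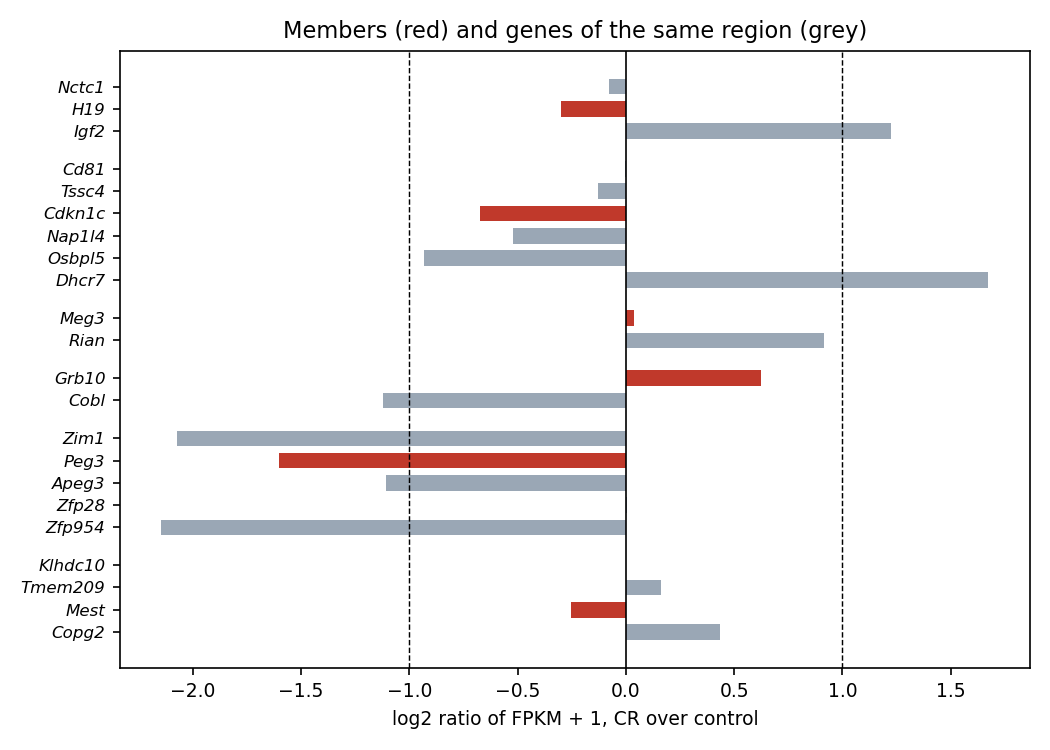
Log2 ratio of FPKM + 1, CR over control, for the 6 measured members (red) and named genes of the same region (grey), grouped by region and in genome order, except that Zfp28 and Zfp954 stand last in the Peg3 group, with dashed lines at 2-fold. Zim1, Peg3 and Apeg3 all lie below the lower line, while H19 and Igf2, and Grb10 and Cobl, point in opposite directions; genes listed at 0 are left out.

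Other imprinted genes lay on both sides. Of 22 measured maternally expressed genes beside the members, 3 were at least 2-fold higher, 3 at least 2-fold lower and 16 within 2-fold (median log2 ratio -0.04). The shares over all genes were 8.01% higher and 10.7% lower. After rescaling the libraries to matching sums of all but the top 50 genes, 2 of the 22 were higher and 5 lower (median -0.11). The higher ones were Pon3, a lactonase gene (311 FPKM in control and 642 in CR muscle), Dhcr7, and Gatm, which makes the precursor of creatine (15.8 and 52.3 FPKM). The lower ones were Zim1, Cobl and Ampd3, the AMP deaminase of red cells (312 and 151 FPKM). The most abundant was Gnas, which encodes the stimulatory G protein subunit, at 8048 and 6621 FPKM. Some of these genes are imprinted only in placenta or brain.

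Of 12 measured paternally expressed genes beside the members, 2 were at least 2-fold higher, 2 at least 2-fold lower and 8 within 2-fold (median log2 ratio 0.16). The higher ones were Igf2 and Sgce, which encodes epsilon-sarcoglycan (70.9 FPKM in control and 182 in CR muscle). The lower ones were Nnat, neuronatin, a small membrane protein of the endoplasmic reticulum (100.02 and 14.0 FPKM, 6.73-fold lower), and Kcnq1ot1. As Kcnq1ot1 is listed at 0 in the CR library, its count may rest on a failed estimate. The 11 genes above 0 in both libraries had a median of 0.20. Among all genes, 8.01% were at least 2-fold higher and 10.7% lower. Both Nnat and Peg3 are paternally expressed, and Nnat had the larger fold of the pair. The growth-linked imprinted network has 14 measured genes, which include 4 members but not the merged loci of H19 and Meg3. Of these 14, 3 were at least 2-fold higher, 2 at least 2-fold lower and 9 within 2-fold (median 0.06). With merged loci counted it had 16 genes and a median of 0.02.

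Markers of other cells are given beside the members because several of these genes are expressed outside the fibre. Fibroblast markers stood higher in the CR library (5 of 11 by at least 2-fold, 0 lower, median log2 ratio 0.77, summed level 5630 and 9075 FPKM, none at 0), as did pericyte and smooth muscle markers (3 of 9 higher, 0 lower, median 0.65, 3018 and 4549 FPKM). Endothelial markers had 2 of 10 higher and 0 lower (median 0.20, 2588 and 3352 FPKM). Macrophage markers had 2 of 4 higher and 0 lower (median 0.79, or 0.35 without Cd14, which is at 0 in the control; 211 and 274 FPKM), and nerve and Schwann cell markers 1 of 7 in each direction (median 0.44, 702 and 1048 FPKM, S100b at 0 in the control and Sox10 at 0 in the CR library). All of these lists had a median above 0. Across all genes, 8.01% were at least 2-fold higher and 10.7% lower. The part of these cells in the level of any member was not tested.

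Lists that stood lower in the CR library were those of denervation and of tendon. Among all genes the share at least 2-fold lower was 10.7%, and 8.01% were higher. The denervation list had 8 of 10 at least 2-fold lower and 0 higher (median log2 ratio -1.96, summed level 8979.5 and 2444 FPKM, Chrng at 0 in the CR library). Its one measured embryonic sarcomere gene, Myl4, lay within 2-fold (184 and 112 FPKM). Tendon markers had 6 of 8 lower and 0 higher (median -1.39, or -1.18 without those at 0, 2054 and 998.7 FPKM, Chad, Tnc and Col12a1 at 0 in the CR library). Satellite cell and myogenic genes were mixed by count, with 3 of 11 lower and 1 higher (median 0.05, or -0.18 without Vcam1, which is at 0 in the control; summed level 4217 and 2631 FPKM). The lower ones were the myogenic factor genes Myod1 (198 FPKM in control and 60.8 in CR muscle), Myog (395 and 174 FPKM) and Myf6 (1824 and 563 FPKM), and the stem cell factor Pax7 was not analysed here. Slow-twitch genes were 10 of 10 higher (median 2.90, 15639 and 132772 FPKM), and skeletal muscle fibre genes 1 of 12 higher and 0 lower (median 0.54). The part of any of these in the Peg3 difference was not tested.

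**Figure D5:**
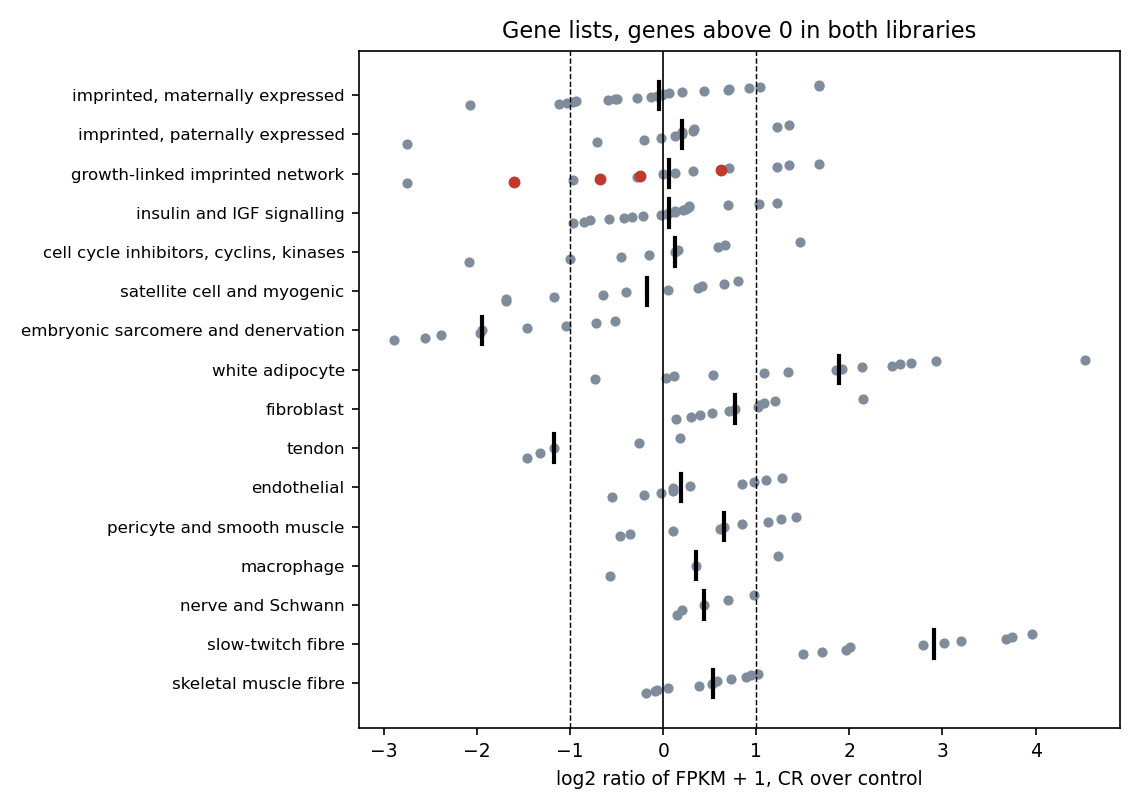
Log2 ratio of FPKM + 1, CR over control, of each gene of the lists that is above 0 in both libraries (points, members in red), with the median of those genes as a black bar and dashed lines at 2-fold. The imprinted lists centre near 0, the denervation and tendon lists lie to the left, and the white adipocyte and slow-twitch lists lie to the right.

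For each member, the genes nearest to it in both libraries were named by the distance between log2(FPKM + 1) values over the 2 libraries, which describes level and ratio only. Peg3 was closest to Rai14 (198 FPKM in control and 67.2 in CR muscle) and Slc35e2 (194 and 62.0 FPKM). H19 was closest to the kinesin gene Kif5b (2213 and 1832 FPKM) and the calpain subunit gene Capns1 (2224 and 1784 FPKM). Grb10 was closest to Bola3 (298 and 450 FPKM) and Dynlt3 (304 and 449.9 FPKM), and Cdkn1c to Zfp212 (148 and 93.6 FPKM) and Slc2a8 (147 and 93.5 FPKM). Meg3 was closest to Rab8a and Pdia3, at distances of 0.0036 and 0.0047, and Mest to Slc31a2 (66.1 and 55.5 FPKM) and Mex3d (65.7 and 55.5 FPKM).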

How the data were processed

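Poly(A) RNA of 1 control and 1 CR library was read as 76 bp pairs, per the labels. Reads were processed with TopHat (1.2.0), Cufflinks and Cuffdiff against mm9, per the submitters' processing notes; the sources used here name no other version, annotation or filter. Per the file headers, the table deposited by the authors holds FPKM of each locus. Their minimum is exactly 1, and 98 of 101 control values between 1 and 2 but 0 of 77 between 2 and 3 have over 6 digits, so 1 was taken off; this offset is inferred. Columns sum to 12758500 and 13608800 FPKM, a scale not explained in the sources used here, and depth is unknown.

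Loci of 1 symbol were summed by symbol (10543 genes) and 234 merged loci left out, except those of H19 and Meg3. Log2 ratios used a pseudocount of 1 FPKM, and 10533 genes whose mean reached 1 FPKM were counted against a 2-fold threshold, with no test across samples. Computation used Python 3.11.15, numpy 2.4.6, pandas 2.3.3 and matplotlib 3.10.9, checked on simulated data. Alternatives were other pseudocounts, filters, scalings and locus rules.

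The members and lists were chosen with earlier results of these data known. Named genes are the members, imprinted genes beside them, the most abundant gene of each list and up to 4 at least 2-fold apart whose mean reached 100 FPKM, and the 2 genes nearest each member; of marker lists mostly counts are given, and some genes the rule takes are not reported here. Igf1, Igf1r, Insr, Igf2r, Gatm, Cd81, Tssc4, Nap1l4, Osbpl5, Klhdc10, Tmem209, Nnat, Cdk2, Cdkn1b, Pcna, Grb14, Plagl2, Nctc1, Apeg3, Zfp28 and Zfp954 were named after their values were seen.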

Additional observations from a re-analysis of the deposited data

How the results depend on the processing

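Filters and locus rules leave a member's own ratio as it is. Of 24 member ratios under other pseudocounts and scalings, 23 kept their direction and their side of 2-fold. Peg3 ran from -1.67 to -1.55 on the log2 scale, Cdkn1c from -0.75 to -0.65, H19 from -0.37 to -0.28, Mest from -0.33 to -0.24 and Grb10 from 0.55 to 0.64. Meg3 turned to -0.034 when the libraries were rescaled so that the sums of all but the top 50 genes matched, a shift of 0.073 for every gene. Mest falls under a filter at 100 FPKM. Under that filter 390 of 7886 genes were at least 2-fold higher and 417 lower. In the main setting these counts were 844 and 1124 of 10533 genes, a larger share in each direction. Leaving out genes listed at 0 in a library, a setting added after the data were seen, left 674 lower genes.

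With the filter at 100 FPKM, the genes at least 2-fold higher became 1 of 18 for insulin and IGF signalling, 0 of 3 for nerve and 0 of 9 for satellite cell lists, and no macrophage gene was left to count. Those at least 2-fold lower became 1 of 10 for the growth-linked network, 0 of 9 for paternally expressed genes, 0 of 3 for nerve and 3 of 4 for tendon, and the medians became 0.16 for cell cycle genes and -0.40 for satellite cell genes. With the filter at 10 FPKM, 1 of 11 paternally expressed and 0 of 6 nerve genes were lower. After rescaling, 3 fibroblast, 1 insulin and IGF and 0 muscle fibre genes were higher, 5 maternally expressed and 1 insulin and IGF gene were lower, and the medians became -0.011 for the network, -0.0092 for insulin and IGF signalling and -0.022 for satellite cell genes. Centring on the median gene gave 0.0022 for cell cycle genes, and a pseudocount of 5 FPKM left 1 insulin and IGF gene higher. No paired analysis was possible because each group has 1 library. With no replicate and no known depth, the precision of every ratio is unknown.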

Other observations

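In the CR library Grb10 and Igf2r carry the same value, 450.826 FPKM, while they stand at 292 and 881 FPKM in the control library. Among 10543 genes, 78 share a CR value above 0 with another gene and 91 share a control value. Snrpn and Snurf, paternally expressed and transcribed together, lie in a merged locus and were left out of the counts; that locus stood at 1272 FPKM in control and 960.7 FPKM in CR muscle.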
